A study of Mus musculus with 6 samples.

Results

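The genes described here are 9 genes of mitochondrial apoptosis and caspase activation: *Bcl2l1*, *Mcl1*, *Bax*, *Bak1*, *Bid*, *Casp8*, *Casp9*, *Xiap* and *Diablo*. They were taken by name from the 12125 genes in the table, and all 9 are listed in it. RNA was sequenced from kidney cells of Trf1+/+ and Trf1flox/flox mice, with 3 libraries per genotype. Both genotypes carried Col1a2-CreERT2, a tamoxifen-activated Cre recombinase driven by the promoter of the fibroblast collagen gene *Col1a2*. Both also carried KFP, the red Katushka fluorescent protein, which is made once Cre has removed a stop cassette. Male and female mice, 6 to 8 weeks old at the start, received tamoxifen by intraperitoneal injection 3 times a week for 8 weeks in both groups. Only the *Trf1* allele therefore differs by label: it is intact in Trf1+/+ mice and can be deleted by Cre in Trf1flox/flox mice. *Trf1* (gene symbol *Terf1*) encodes a protein of shelterin, the complex that protects telomeres, and the comparison asks how RNA levels in the sorted cells differ once it is deleted. Each library was made from 500 cells sorted with antibodies to CD29, an integrin of the cell surface, and to KFP. The methods give sample sizes as numbers of mice, and the replicate numbers used here are names that pair no libraries.

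In mitochondrial apoptosis, proteins of the BCL2 family decide whether the outer membrane of the mitochondrion is opened. BAX and BAK1 form the pores, BCL-XL (the product of *Bcl2l1*) and MCL1 hold them in check, and BH3-only proteins such as BID relieve that restraint. Once the membrane is open, cytochrome c leaves it and activates caspase-9 on the apoptosome, while DIABLO (also called SMAC) leaves it and frees caspases from XIAP. Death receptors at the cell surface act through caspase-8, which can cut BID and so link both routes. Telomeres that lose their protection are read as DNA damage, and p53, which responds to such damage, can induce *Bax*. In the kidney, death of tubule cells by this pathway is a known part of acute injury.

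Levels are normalized counts, that is, reads of a gene divided by a size factor of the library. A single read was worth 0.689 to 1.09 normalized counts, and up to 3 reads of a gene in a library are called the floor. Differences are log2 fold changes of the normalized count plus 1, Trf1flox/flox minus Trf1+/+, each with its standard error (SE) from limma. They were tested in the 9966 genes that reached 10 normalized counts in 3 or more libraries, with Benjamini-Hochberg adjustment over all of them, and all 9 genes passed this filter.

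The libraries held 10263382 to 12248797 reads on listed genes, and 8967 to 11593 genes had a value above 0. Trf1+/+ replicate 1 had the fewest genes above 0, and 34.4% of the tested genes were at the floor there, against 2.48% to 20.0% in the other 5 libraries. *Terf1* had 0.891, 253 and 235 normalized counts in Trf1+/+ replicates 1, 2 and 3 and 110.0, 7.65 and 12.4 in Trf1flox/flox replicates 1, 2 and 3. The value in Trf1+/+ replicate 1 was a single read, low for its label, in the library with the most tested genes at the floor. Whether genotype or missed reads lay behind it was not tested. Trf1flox/flox replicate 1 also lay above the other Trf1flox/flox libraries, though below Trf1+/+ replicates 2 and 3. Genotypes below are those of the labels for all 6 libraries. *Terf1* had a log2 fold change of -1.04 (SE 2.22, limma adjusted p = 0.996). Markers of tubule cells were high and fibroblast markers low, which goes against the labelled cell type. The 8 proximal tubule markers summed to 18953 to 89416 normalized counts in Trf1+/+ and 19000 to 111829 in Trf1flox/flox libraries, and *Col1a2*, whose promoter drives Cre, had 0 to 1.78 in all 6 libraries. Of the 8 fibroblast markers chosen, 3 are listed, and they summed to 1.66 to 105 and 15.5 to 102. The 5 markers of the loop of Henle and distal tubule summed to 73839 to 120636 and 55528 to 138180, the 4 of the collecting duct to 261 to 6208 and 1086 to 17649, and the 4 erythroid markers to 133 to 7545 and 87.6 to 38840. The pericyte marker *Cspg4* had 0 to 37.4 and 18.6 to 173, the 2 listed macrophage markers summed to 0 to 379 and 0 to 260.1, the endothelial marker *Pecam1* reached 12.0 at most, and no podocyte marker is listed. Values below therefore belong to the sorted cells as a whole, and fewer cells of a type and less RNA per cell cannot be told apart in them.

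None of the 9 genes differed between genotypes by limma at an adjusted p under 0.05, and none of the 9966 tested genes did (0%). The adjusted p was 0.996 for each of the 9. At an unadjusted p under 0.05 limma called 4.56% of all tested genes (454 genes) and none of the 9, and edgeR, which called 196 genes at that threshold, also called none of the 9. DESeq2 called 0.582% of the tested genes (58 genes) at an adjusted p under 0.05, and again none of the 9. In Trf1flox/flox libraries 7 of the 9 had a higher mean log2 value and 2 a lower one, and 6 were higher with edgeR and with DESeq2, where *Casp9* was lower. The median log2 fold change was 1.05, beside 0.20 over all tested genes, of which 55.9% were higher. For 2 of the 9, *Mcl1* and *Xiap*, every Trf1flox/flox library lay above every Trf1+/+ library, as in 5.35% of all tested genes. For none of the 9 did every Trf1flox/flox library lie below, as in 3.33% of all tested genes.

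The sequences that precede the start sites of these 2 genes and of *Bax* are shown because *Mcl1* and *Xiap* are the genes whose groups did not overlap and *Bax* is the textbook p53 target among the 9. Each is the 250 bases before a RefSeq transcription start on GRCm38.p6, 5′ to 3′ on the strand of the gene. All 9 genes have at least 1 such window, and *Xiap* has 3, of which the one richest in G and C (57.6%), chrX:42068148-42068397, is printed. The *Mcl1* window is chr3:95658471-95658720 on the plus strand, the *Bax* window chr7:45466899-45467148 on the minus strand, and the *Xiap* window lies on the plus strand. Capitals mark matches to 6 motifs, each searched on both strands with overlaps allowed. These were the GC box, spelled GGGCGG, and the CCAAT box, spelled by its name. The others were the TATA box, spelled TATAAA, the E box, spelled CACGTG, the kappa-B decamer and the p53 decamer, the sequence that occurs in pairs in binding sites of p53.
Mcl1: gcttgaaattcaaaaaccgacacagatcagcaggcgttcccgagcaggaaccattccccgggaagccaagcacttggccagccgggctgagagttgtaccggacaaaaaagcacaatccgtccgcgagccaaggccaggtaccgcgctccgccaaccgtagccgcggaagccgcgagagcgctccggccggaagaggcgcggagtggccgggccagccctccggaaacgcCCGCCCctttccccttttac
Bax: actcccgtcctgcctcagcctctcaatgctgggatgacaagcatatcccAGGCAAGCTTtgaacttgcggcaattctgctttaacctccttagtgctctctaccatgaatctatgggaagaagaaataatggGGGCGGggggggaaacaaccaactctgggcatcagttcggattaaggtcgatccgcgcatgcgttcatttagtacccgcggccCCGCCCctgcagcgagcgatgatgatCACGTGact
Xiap: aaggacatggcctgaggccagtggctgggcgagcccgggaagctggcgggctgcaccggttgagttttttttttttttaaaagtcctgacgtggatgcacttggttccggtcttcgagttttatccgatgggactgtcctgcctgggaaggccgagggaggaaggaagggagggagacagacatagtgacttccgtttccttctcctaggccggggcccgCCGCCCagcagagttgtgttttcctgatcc
The *Mcl1* window, with 64.4% G and C, held 1 GC box, which began at position -20 from the start. The *Xiap* window held 1 GC box at -30, and the other *Xiap* windows held 1 GC box at -60 and 1 TATA box at -249. The *Bax* window held GC boxes at -118 and -35, an E box at -9 and a p53 decamer at -201. Over the 32851 windows of the reference, a GC box was found in 32.7%, a CCAAT box in 33.8%, a TATA box in 12.4%, an E box in 6.02%, a kappa-B decamer in 3.90% and a p53 decamer in 7.13%. These are matches of letters, and none is known from these data to be a bound site.

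**Figure D1:**
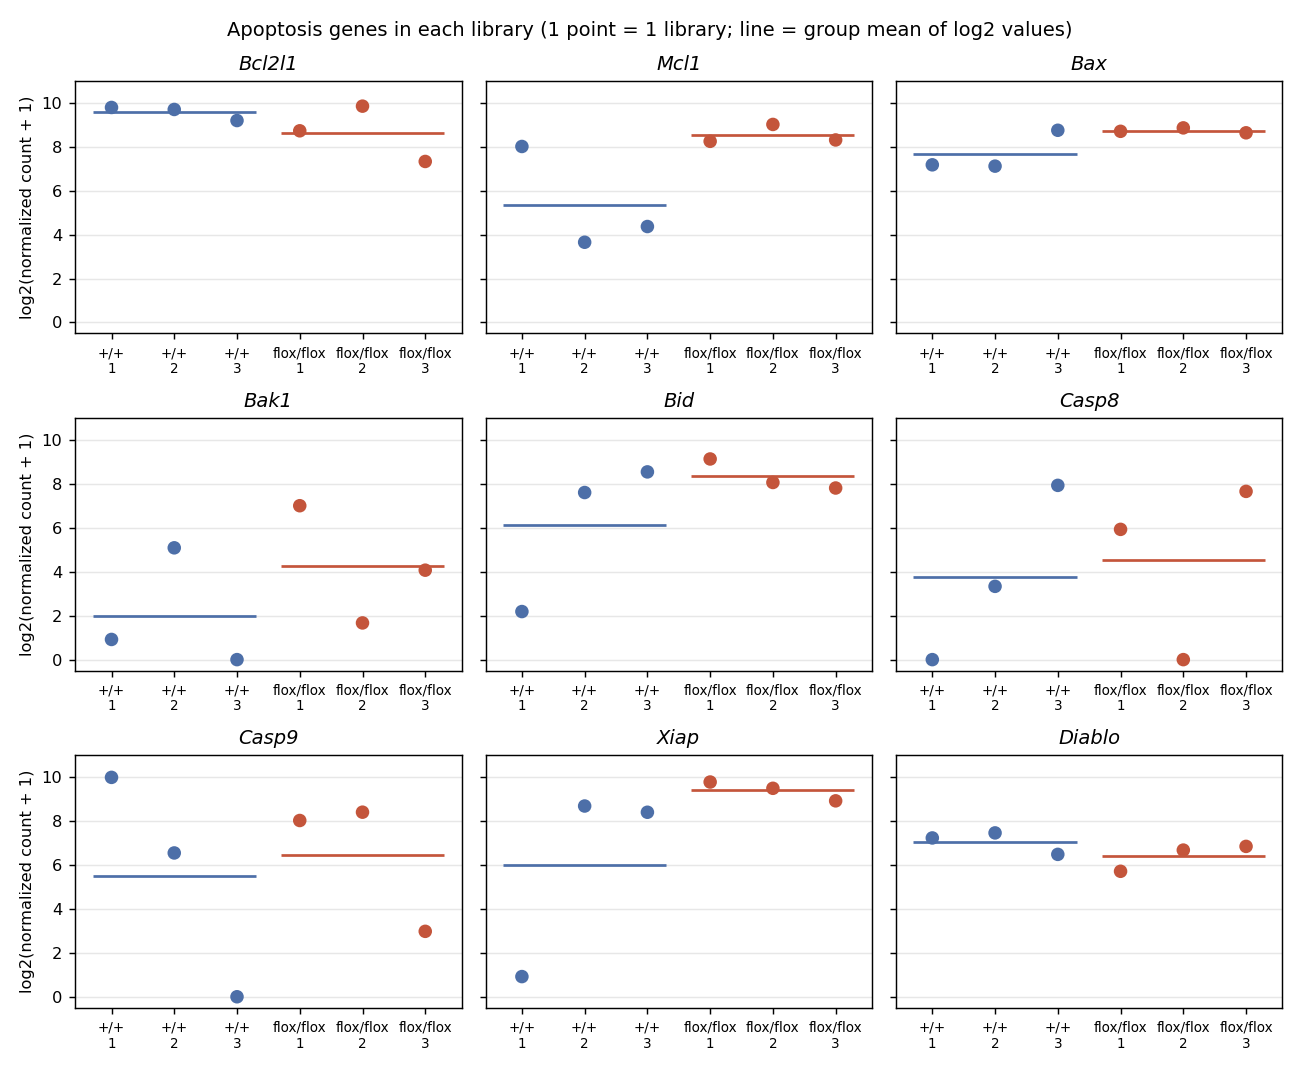
Level of each of the 9 genes in every library, as log2(normalized count + 1), with Trf1+/+ libraries in blue, Trf1flox/flox libraries in red and a line at the mean of each group's log2 values. The groups do not overlap for Mcl1 and Xiap, and Trf1+/+ replicate 1 lies far below the other libraries for Bid and Xiap.

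Among the anti-apoptotic genes, *Bcl2l1* was readily detected in every library. *Bcl2l1* (ENSMUSG00000007659, chr2:152780668-152831728, minus strand, GRCm38) stood at 888, 834 and 587 normalized counts in Trf1+/+ replicates 1, 2 and 3, against 424, 926 and 161 in Trf1flox/flox replicates 1, 2 and 3. The highest and the lowest values were both in Trf1flox/flox libraries, so the groups overlapped. Group means were 769.6 ± 160.2 (SD, n = 3) for Trf1+/+ against 504 ± 389 (SD, n = 3) for Trf1flox/flox. Its log2 fold change of -0.93 (SE 0.94) was smaller than its SE (limma unadjusted p = 0.360). It stayed below 0 in all 14 alternative analyses, between -1.53 and -0.27.

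*Mcl1*, whose short-lived product guards the outer membrane alongside BCL-XL, had the smallest p of the 9. *Mcl1* (ENSMUSG00000038612, chr3:95658788-95663176, plus strand) stood at 258, 11.6 and 19.7 normalized counts across the Trf1+/+ libraries, against 304, 519 and 318 across the Trf1flox/flox libraries. The low values in Trf1+/+ replicates 2 and 3 came from 14 and 20 reads, while replicate 1 came close to the lowest Trf1flox/flox library. Group means were 96.5 ± 140.2 (SD, n = 3) for Trf1+/+ against 380.3 ± 120.4 (SD, n = 3) for Trf1flox/flox, a ratio of 3.94. Its log2 fold change was 3.18 (SE 1.32, limma unadjusted p = 0.0515, adjusted p = 0.996), and the exact two-sided permutation test gave p = 0.1, the smallest that 3 libraries against 3 allow. Trf1+/+ replicate 1, the library with the most genes at the floor, held 290 reads of *Mcl1*. Without that library the log2 fold change of *Mcl1* was 4.52 (SE 0.74, limma unadjusted p = 0.00178, adjusted p = 0.278). The groups of 17.9% of all tested genes then did not overlap, in either direction. The limma unadjusted p of *Mcl1* was 0.143 without Trf1+/+ replicate 2 and 0.133 without Trf1+/+ replicate 3. It was 0.198 with edgeR and 0.122 with DESeq2. The unadjusted p was under 0.05 in 4 of the 14 alternatives, including those that left out Trf1+/+ replicate 1. The adjusted p of *Mcl1* lay between 0.278 and 1.00 over all 14. The only listed marker of lymphocytes, *Trac*, had 0 normalized counts in all Trf1+/+ libraries and 61.3 to 216 in Trf1flox/flox libraries, and its part in the difference of *Mcl1* was not tested.

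Of the pore-forming genes, *Bax* was evenly expressed across Trf1flox/flox libraries and *Bak1* was sparse. *Bax* (ENSMUSG00000003873, chr7:45461697-45466898, minus strand) stood at 144, 138 and 432 normalized counts across the Trf1+/+ libraries, against 418, 466 and 398 across the Trf1flox/flox libraries. Trf1+/+ replicates 1 and 2 lay below all other libraries, and replicate 3 lay within the range of the Trf1flox/flox libraries. Group means were 238 ± 168 (SD, n = 3) for Trf1+/+ against 427 ± 34.6 (SD, n = 3) for Trf1flox/flox, and the log2 fold change was 1.05 (SE 0.84, limma unadjusted p = 0.254). It was above 0 in all 14 alternatives, between 0.74 and 1.59. In GENCODE, 192 exonic bases of *Bax* are shared with *Gm45808* on the same strand, so that reads there cannot be assigned.

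*Bak1* (ENSMUSG00000057789, chr17:27019810-27029009, minus strand) stood at 0.891, 33.1 and 0 normalized counts across the Trf1+/+ libraries, against 128, 2.19 and 15.8 across the Trf1flox/flox libraries. It was at the floor in 3 of the 6 libraries, 1 of them at 0, and the groups overlapped. Its log2 fold change was 2.25 (SE 1.91, limma unadjusted p = 0.284). The difference was within the spread between libraries of the same genotype, whose SD on the log2 scale was 2.69 for *Bak1*. Exons of *Ggnbp1* overlap it on the opposite strand, so reads there cannot be assigned.

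*Bid* encodes the BH3-only protein that caspase-8 cuts. *Bid* (ENSMUSG00000004446, chr6:120891930-120916853, minus strand) stood at 3.56, 195 and 374 normalized counts across the Trf1+/+ libraries, against 564, 268 and 225 across the Trf1flox/flox libraries. Trf1+/+ replicate 1, with 4 reads, lay far below the other 5 libraries, which overlapped. Group means were 191 ± 185 (SD, n = 3) for Trf1+/+ against 352 ± 185 (SD, n = 3) for Trf1flox/flox, and the log2 fold change was 2.22 (SE 1.78, limma unadjusted p = 0.258). Without Trf1+/+ replicate 1 the log2 fold change of *Bid* was 0.26. The 3′ end of *Bid* shares 628 exonic bases with *Bcl2l13* on the opposite strand, and reads of both genes cannot be told apart there because the libraries were not stranded.

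The initiator caspases had the highest SDs within genotypes of the 9 genes on the log2 scale. *Casp8* (ENSMUSG00000026029, chr1:58795374-58847503, plus strand), the initiator of the death receptor route, stood at 0, 9.11 and 244 normalized counts across the Trf1+/+ libraries, against 60.1, 0 and 202 across the Trf1flox/flox libraries. Each genotype had 1 library at 0 and 1 above 200, and the groups overlapped. Group means were 84.5 ± 138.5 (SD, n = 3) for Trf1+/+ against 87.4 ± 103.7 (SD, n = 3) for Trf1flox/flox, with a log2 fold change of 0.77 (SE 2.73, limma unadjusted p = 0.787). Without Trf1+/+ replicate 1 the log2 fold change of *Casp8* was -1.11.

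*Casp9* (ENSMUSG00000028914, chr4:141793612-141815976, plus strand), the initiator of the mitochondrial route, stood at 1019, 92.8 and 0 normalized counts across the Trf1+/+ libraries, against 260.3, 339 and 6.89 across the Trf1flox/flox libraries. The highest and the lowest value were both in Trf1+/+ libraries. Group means were 371 ± 563 (SD, n = 3) for Trf1+/+ against 202 ± 173 (SD, n = 3) for Trf1flox/flox, whereas the log2 fold change was 0.96 (SE 2.85, limma unadjusted p = 0.748), so the sign depended on the scale. On the reads, the log2 fold change of *Casp9* was -0.78 with edgeR and -0.84 with DESeq2. Without Trf1+/+ replicate 3 it was -1.80, without Trf1flox/flox replicate 2 it was -0.01, and without Trf1+/+ replicate 1 it was 3.20. *Casp9* shares 94 exonic bases with each of *Cela2a* and *Ctrc* on the opposite strand.

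*Xiap*, on the X chromosome, encodes the inhibitor of caspases 3, 7 and 9. *Xiap* (ENSMUSG00000025860, chrX:42059679-42109656, plus strand) stood at 0.891, 412 and 338 normalized counts across the Trf1+/+ libraries, against 879.8, 721 and 485 across the Trf1flox/flox libraries. All Trf1flox/flox libraries lay above all Trf1+/+ libraries, and Trf1+/+ replicate 1 held a single read. Group means were 250.2 ± 219 (SD, n = 3) for Trf1+/+ against 695 ± 199 (SD, n = 3) for Trf1flox/flox, a ratio of 2.78. Its log2 fold change was 3.40 (SE 2.18, limma unadjusted p = 0.170), and the exact two-sided permutation test again gave p = 0.1. Without Trf1+/+ replicate 1 the groups still did not overlap, as then in 17.9% of all tested genes in either direction, and the log2 fold change of *Xiap* was 0.85 (SE 0.72, limma unadjusted p = 0.287).

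*Diablo*, the antagonist of XIAP, had the lowest SD within genotypes of the 9 genes on the log2 scale. *Diablo* (ENSMUSG00000029433, chr5:123509765-123524176, minus strand) stood at 149.6, 176 and 88.7 normalized counts across the Trf1+/+ libraries, against 51.6, 102 and 114 across the Trf1flox/flox libraries. The groups overlapped, with the lowest library in Trf1flox/flox and the highest in Trf1+/+. Group means were 138 ± 44.6 (SD, n = 3) for Trf1+/+ against 89.2 ± 33.2 (SD, n = 3) for Trf1flox/flox, and the log2 fold change was -0.65 (SE 0.80, limma unadjusted p = 0.452). It stayed below 0 in all 14 alternatives, between -0.93 and -0.30. *Diablo* shares 1326 exonic bases with *B3gnt4* on the opposite strand and 1193 with *Gm49027* on its own, so reads there cannot be assigned.

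**Figure D2:**
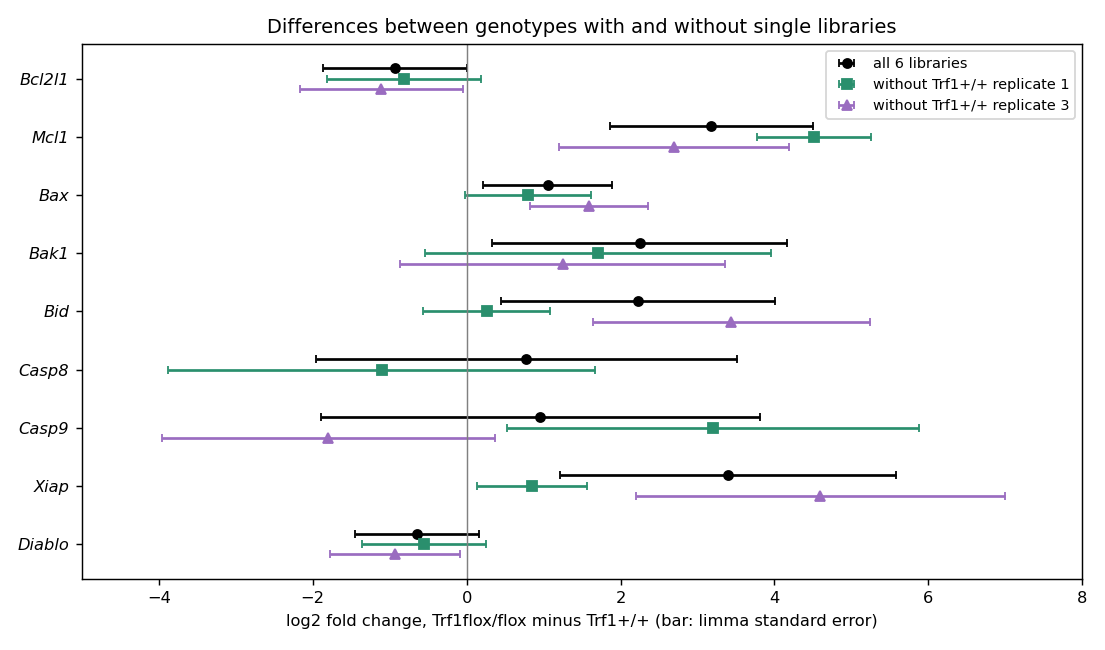
Log2 fold change of each gene, Trf1flox/flox minus Trf1+/+, with the limma SE as a bar, from all 6 libraries (black circles) and without Trf1+/+ replicate 1 (green squares) or replicate 3 (purple triangles, absent for Casp8, which did not pass the filter on low values there). Without replicate 1 the estimate for Xiap went from 3.40 to 0.85 and that for Bid from 2.22 to 0.26, while that for Mcl1 went from 3.18 to 4.52.

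The spread between libraries of the same genotype differed widely among the 9. On the log2 scale the SD within genotypes was 0.56 for *Diablo*, 0.66 for *Bax*, 0.92 for *Bcl2l1* and 1.68 for *Mcl1*, each below the median of 2.17 over all tested genes. It was 2.48 for *Bid*, 2.69 for *Bak1*, 3.13 for *Xiap*, 4.00 for *Casp8* and 4.18 for *Casp9*, each above that median. For *Bid* and *Xiap* Trf1+/+ replicate 1 stood apart, with the other 5 libraries at 195 to 564 and 338 to 879.8 normalized counts. The genes at the floor were unevenly spread over the libraries: 3 of the 9 in Trf1+/+ replicate 1, 2 in Trf1+/+ replicate 3, 2 in Trf1flox/flox replicate 2 and none in the other 3 libraries. In Trf1+/+ replicate 1 these were *Bak1*, *Casp8* and *Xiap*, 33.3% of the 9 beside 34.4% of all tested genes. The shares were 22.2% beside 8.04% in Trf1+/+ replicate 3 and 22.2% beside 20.0% in Trf1flox/flox replicate 2.

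Levels of different genes were compared per kilobase of exon. The length took all annotated exons of a gene together, with the bases shared with other genes left in. The order may therefore depend on the annotation. By the median over the 6 libraries, *Bax* was highest with 259 normalized counts per kilobase, followed by *Bcl2l1* with 155, *Mcl1* with 82.3, *Bid* with 69.4 and *Xiap* with 47.4. *Casp9* followed with 34.0, then *Diablo* with 17.5, *Casp8* with 12.0 and *Bak1* with 3.75. In Trf1+/+ replicates 1 and 2 *Bcl2l1*, with 194 and 182 per kilobase, lay above *Bax*, with 91.6 and 87.8. The ranges over libraries of every pair of neighbours in this order overlapped. The lowest value of *Bax*, 87.8, lay above the highest of *Diablo*, 28.5, of *Bak1*, 53.2, and of *Casp8*, 84.5.

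Ratios of partner genes within a library do not depend on its size factor and were calculated as descriptions, with the values of the genes already known. The ratio of *Bax* to *Bcl2l1*, pore former to inhibitor, was 0.162, 0.166 and 0.735 in Trf1+/+ replicates 1, 2 and 3 and 0.984, 0.503 and 2.48 in Trf1flox/flox replicates 1, 2 and 3. The groups overlapped, since Trf1+/+ replicate 3 lay above Trf1flox/flox replicate 2. The ratio of *Bax* to the other inhibitor, *Mcl1*, was 0.559, 11.9 and 21.9 in Trf1+/+ and 1.37, 0.897 and 1.25 in Trf1flox/flox libraries. Here Trf1+/+ replicate 1 lay below all Trf1flox/flox libraries and Trf1+/+ replicates 2 and 3 lay above them. The ratio of *Mcl1* to *Bcl2l1*, both inhibitors, was 0.291, 0.0139 and 0.0336 in Trf1+/+ and 0.717, 0.561 and 1.98 in Trf1flox/flox libraries, without overlap. The ratio of *Xiap* to its antagonist *Diablo* was 0.00595, 2.34 and 3.81 in Trf1+/+ and 17.1, 7.10 and 4.24 in Trf1flox/flox libraries. These groups did not overlap either, although Trf1+/+ replicate 3 and Trf1flox/flox replicate 3 lay close together. *Mcl1* and *Xiap* already did not overlap on their own, so the separation of their ratios is not a further result. The share of other gene pairs whose ratios separate was not calculated.

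**Figure D3:**
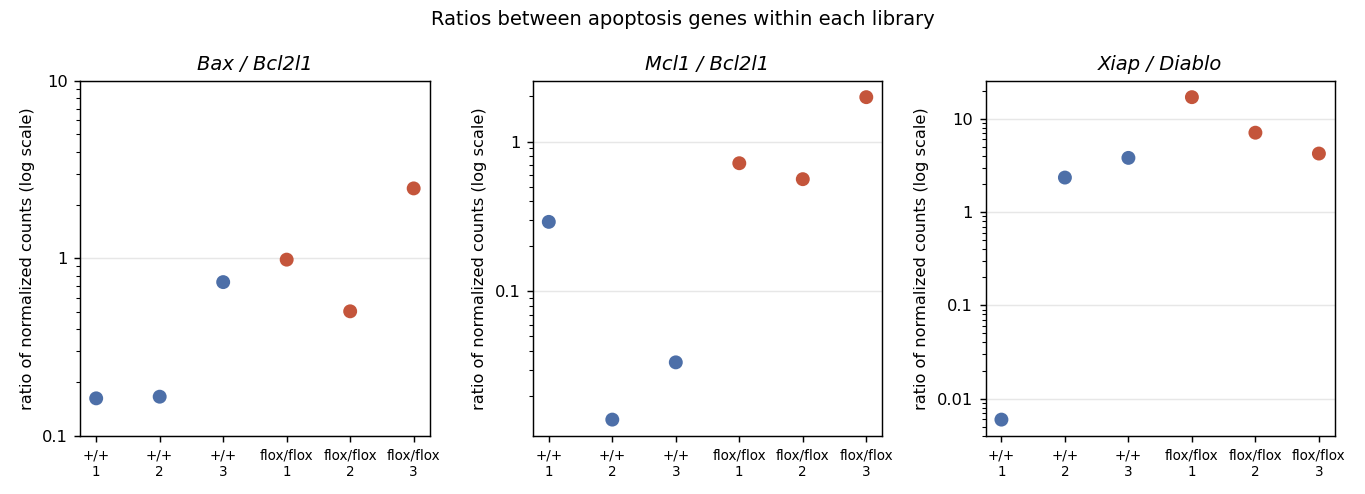
Ratios of normalized counts within each library on log axes: Bax to Bcl2l1 (left), Mcl1 to Bcl2l1 (middle) and Xiap to Diablo (right), with Trf1+/+ libraries in blue and Trf1flox/flox libraries in red. Trf1flox/flox libraries lie above all Trf1+/+ libraries for Mcl1 to Bcl2l1 (0.561 to 1.98 against 0.0139 to 0.291) and Xiap to Diablo (4.24 to 17.1 against 0.00595 to 3.81). They also do so for Mcl1 and Xiap alone.

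Across the 6 libraries the 9 genes varied together only in part. The highest correlation of log2 values within the 9 was between *Bid* and *Xiap* (Pearson's r = 0.98, n = 6), which share the low value in Trf1+/+ replicate 1, and without that library r was 0.47 (n = 5). The tested gene most like each of the 9, by Pearson's r of log2 values over the 6 libraries, was *Echdc1* for *Bcl2l1* (0.983), *Ugt1a10* for *Mcl1* (0.984), *Tbc1d10a* for *Bax* (0.999) and *Rab8b* for *Bak1* (0.994). It was *Paxbp1* for *Bid* (0.998), *Rhof* for *Casp8* (1.00), *Pygl* for *Casp9* (0.992), *Man2a1* for *Xiap* (0.999) and *Bola3* for *Diablo* (0.992). With 6 points such values are easily reached: from 35 tested genes for *Bcl2l1* to 1016 for *Xiap* had an r above 0.9. The r of *Xiap* with *Man2a1* was 0.947 without Trf1+/+ replicate 1, where *Man2a1* had 1.78 normalized counts.

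The other genes of the pathway were read from a list of 65 genes, of which 46 are listed in the table and 41 passed the filter. Of the 41, 22 were higher and 19 lower in Trf1flox/flox libraries, with a median log2 fold change of 0.12, beside 0.20 over all tested genes. At an unadjusted p under 0.05 limma called 2 higher, *Tradd* and *Lmna*, and 1 lower, *Bcl2l11*, of the 41, beside 4.56% of all tested genes. At an adjusted p under 0.05 it called none. The groups did not overlap for 2 genes with higher and 2 with lower values in Trf1flox/flox libraries, 4.88% each of the 41, beside 5.35% and 3.33% of all tested genes.

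*Tradd*, the adaptor that binds death receptors such as TNF receptor 1, stood at 0, 11.6 and 0 normalized counts across the Trf1+/+ libraries, against 255, 667 and 65.5 across the Trf1flox/flox libraries. All Trf1flox/flox libraries lay above the Trf1+/+ libraries, of which 2 were at 0. The log2 fold change of *Tradd* was 6.59 (SE 1.44, limma unadjusted p = 0.00362, adjusted p = 0.343). Over the alternatives the adjusted p of *Tradd* ranged from 0.0641 with DESeq2 to 0.999 with edgeR. The other 6 tested death receptors and adaptors held 3 with higher and 3 with lower values, none with an unadjusted p under 0.05.

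*Bcl2l11*, which encodes the BH3-only protein BIM, stood at 108.7, 34.0 and 264 normalized counts across the Trf1+/+ libraries, against 14.6, 21.9 and 3.45 across the Trf1flox/flox libraries. All Trf1flox/flox libraries lay below the Trf1+/+ libraries, which themselves spread widely. The log2 fold change of *Bcl2l11* was -3.11 (SE 1.14, limma unadjusted p = 0.0340, adjusted p = 0.996). The unadjusted p of *Bcl2l11* was 0.142 with edgeR and 0.0421 with DESeq2.

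*Lmna*, the gene of lamin A, a substrate of effector caspases at the nuclear envelope, stood at 32.1, 16.6 and 56.2 normalized counts across the Trf1+/+ libraries, against 354, 754 and 95.8 across the Trf1flox/flox libraries. The groups did not overlap, and Trf1flox/flox replicate 3 lay closest to the Trf1+/+ libraries. The log2 fold change of *Lmna* was 3.20 (SE 1.07, limma unadjusted p = 0.0240, adjusted p = 0.891). The unadjusted p of *Lmna* was 0.0513 with edgeR and 0.00243 with DESeq2. The lymphocyte marker *Trac* had 172, 216 and 61.3 normalized counts in Trf1flox/flox replicates 1, 2 and 3 and 0 in all Trf1+/+ libraries. Its part in the differences of *Tradd* and *Lmna* was not tested.

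In each of the other functional groups, the gene with the smallest p did not reach an unadjusted p under 0.05 with limma on all 6 libraries and a constant variance prior. Without Trf1+/+ replicate 3, *Bok* (limma unadjusted p = 0.00122, adjusted p = 0.102) and *Birc2* (limma unadjusted p = 0.00105, adjusted p = 0.102) did. So did 792 of the 8980 genes tested without that library, against 454 of 9966 with all 6 libraries. *Bok*, a pore-forming relative of BAX and BAK1, came nearest: it stood at 0, 0 and 91.6 normalized counts across the Trf1+/+ libraries, against 145, 90.7 and 37.2 across the Trf1flox/flox libraries (log2 fold change 4.14, limma unadjusted p = 0.0771). *Birc2*, a relative of XIAP, stood at 0.891, 2.49 and 278 normalized counts across the Trf1+/+ libraries, against 157, 321 and 127 across the Trf1flox/flox libraries (log2 fold change 3.93, limma unadjusted p = 0.0951). Both overlapped between genotypes because Trf1+/+ replicate 3 was high, the only Trf1+/+ library with either gene above the floor. Without that library both passed the filter only through the Trf1flox/flox libraries, so their p values there are no support for a difference. *Vdac2*, a channel of the outer membrane that holds BAK1, stood at 2964 to 11614 normalized counts in Trf1+/+ and 1699 to 2990.0 in Trf1flox/flox libraries (log2 fold change -1.26, limma unadjusted p = 0.197). The unadjusted p of *Vdac2* was 0.0274 with edgeR, 0.0166 with DESeq2 and 0.0358 with limma and a mean-variance trend, and without Trf1+/+ replicate 1 its log2 fold change was -0.72. *Casp2* had 7.88 to 10.8 normalized counts in Trf1+/+ libraries and 4.30, 617 and 74.4 in Trf1flox/flox libraries (log2 fold change 2.68, limma unadjusted p = 0.178), so its mean in Trf1flox/flox rested on replicate 2. The unadjusted p of *Casp2* was 0.00489 with DESeq2 (adjusted p = 0.303) and 0.0757 with edgeR. Without Trf1flox/flox replicate 1, the library with its lowest value, it was 0.0147 with limma. Without Trf1+/+ replicate 2, or without Trf1flox/flox replicate 2 or 3, *Casp2* did not pass the filter. The anti-apoptotic *Bcl2l2* had a log2 fold change of 2.78 (SE 2.08, limma unadjusted p = 0.229), which was 0.62 without Trf1+/+ replicate 1, where it had no read. *Marchf5*, the gene of a ubiquitin ligase of the outer membrane that acts on MCL1, had -1.49 (SE 1.30, limma unadjusted p = 0.293), which was -0.40 without Trf1flox/flox replicate 1. For *Bcl2l12* it was 3.12 (SE 1.78, limma unadjusted p = 0.130), and for the mitochondrial nuclease gene *Endog* -0.87 (SE 0.88, limma unadjusted p = 0.363).

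**Figure D4:**
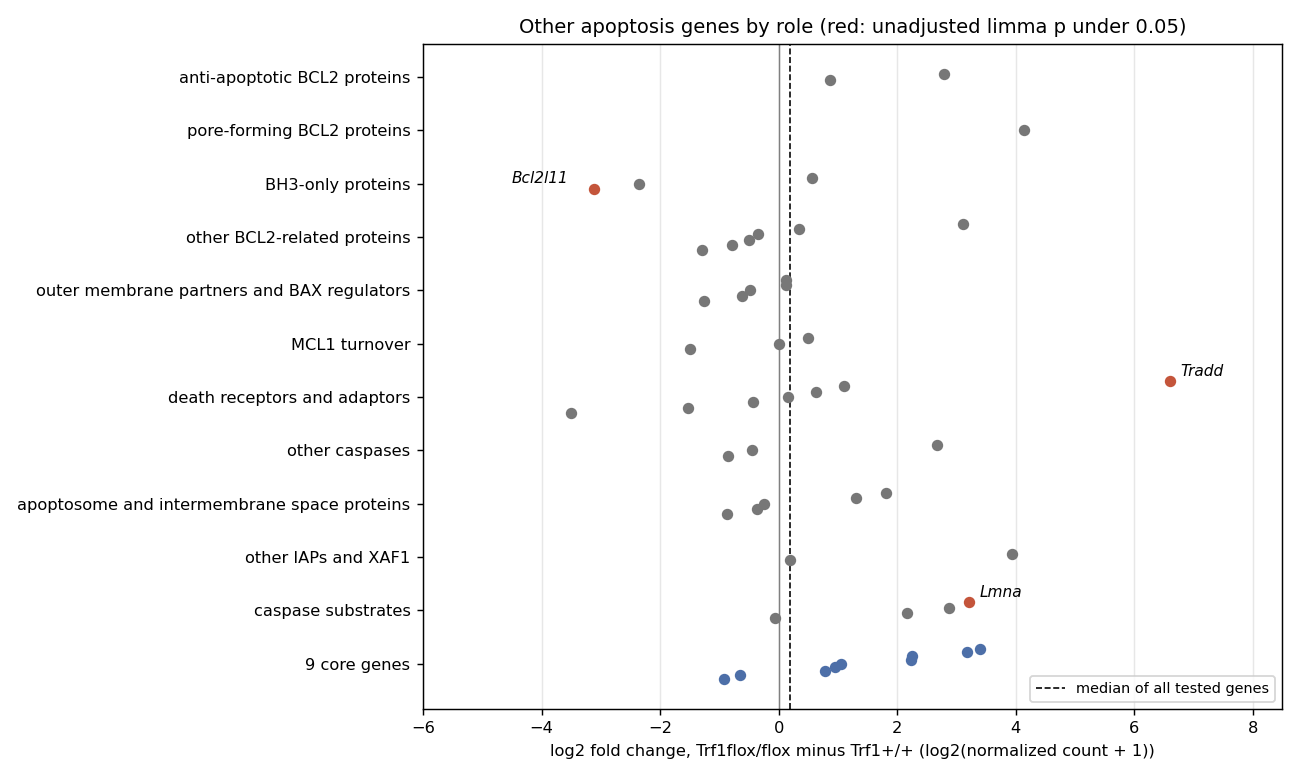
Log2 fold change, Trf1flox/flox minus Trf1+/+, of the 41 tested genes of the apoptosis list by role (1 point per gene, red where the unadjusted limma p was under 0.05) and of the 9 core genes (blue, bottom row). The dashed line is the median of all tested genes, 0.20, and the named points are Bcl2l11 (-3.11), Tradd (6.59) and Lmna (3.20).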

How the data were processed

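Sorted kidney cells yielded cDNA by oligo(dT)-primed, template-switching reverse transcription, and PCR-amplified libraries were sequenced without strand information or molecular identifiers. Per the study's methods the authors aligned reads with TopHat 2.0.10 and Bowtie 1.0.0 to GRCm38 and counted them with HTSeq 0.6.1 on GENCODE vM20 genes, and the submitters' processing notes also name DESeq2 and GRCm39. The methods name a stranded library type (second strand) for the alignment, although they describe the libraries as not stranded. The strand setting of the counting is not given in the sources used here. Coordinates printed are those of GENCODE vM21 on GRCm38. The deposited signal is a table of normalized counts, 1 column per library, and all columns belong to a sample. All values (100%) were whole multiples of 1 read within a tolerance of 0.01 reads, so reads were recovered for the alternatives. Only genes in the table enter the totals, and the floor of 3 reads covers counting error only, since PCR copies are not independent molecules.

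Genotypes were compared with limma 3.58.1 (R 4.3.3, constant variance prior, no covariate) on log2(normalized count + 1), in genes that reached 10 normalized counts in 3 or more libraries, with Benjamini-Hochberg adjustment and a threshold of 0.05. The log2 fold change understates changes of low genes. Alternatives were pseudocounts of 0.5 and 10, no filter, upper quartile scaling, a mean-variance trend, edgeR 4.0.16 (quasi-likelihood, TMM), DESeq2 1.42.0, leaving out each library, and leaving out both libraries with the most well expressed genes at 0. The code was tested on simulated data. The 9 genes, the wider list and the markers were chosen with earlier results of these data known. Named besides the 9 are *Terf1*, the gene with the smallest p in each role of the wider list, the gene most correlated with each of the 9, and markers beside a result. Promoter sequences are from RefSeq, GRCm38.p6.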

Additional observations from a re-analysis of the deposited data

How the results depend on the processing

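Over the 14 alternatives none of the 9 genes was called at an adjusted p under 0.05, and the sign of the log2 fold change held for *Bcl2l1*, *Mcl1*, *Bax*, *Bid*, *Xiap* and *Diablo* in all 14 and for *Bak1* in the 11 in which it passed the filter. It did not hold for *Casp9*, which was -0.78 with edgeR, -0.84 with DESeq2 and -1.80 to 3.20 with single libraries left out, or for *Casp8*, which was -1.11 to 3.04 with single libraries left out, in the 3 of these 6 analyses in which it passed the filter. The log2 fold change of *Terf1* was -3.38 to 0.15 with each library left out. DESeq2 called 58 genes in the whole table at an adjusted p under 0.05, where limma and edgeR called 0. DESeq2 gave no adjusted p for 559 genes. The number of the 9 genes whose groups did not overlap was 2 to 5 with each library left out, and was 5 without Trf1+/+ replicate 3 (*Mcl1*, *Bax*, *Bid*, *Xiap* and *Diablo*), where 25.5% of all tested genes did not overlap. The median log2 fold change of all tested genes was 0.35 after upper quartile scaling, -0.04 with edgeR and -0.05 with DESeq2, against 0.20, and 55.9% of genes were higher against 48.3% with edgeR and with DESeq2. It was -0.02 without Trf1+/+ replicate 1. The causes of these changes were not tested. No paired analysis was possible because the replicate numbers only name the libraries. With 3 libraries per genotype, the standard errors of *Bcl2l1*, *Casp8*, *Casp9* and *Diablo* were larger than the size of their log2 fold changes.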
